A study of Mus musculus with 2 samples.

Results

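In the H3K9me2 peak list of TBC1D3-transgenic embryonic mouse cortex, 617 peaks lay within 10 kb of another peak of the list, summit to summit, on chromosomes 1 to 19. They were 10.1% of the 6092 peaks on those chromosomes. The whole list, with the other chromosomes, holds 6253 peaks. Chained by that distance they formed 296 clusters. The positions of the transgenic summits chose the members, so the number of clusters, their size and their spacing are a description and were not tested. The study holds 1 wild-type and 1 transgenic ChIP-seq library, both from cortex of C57BL/6 embryos at embryonic day 15.5, and the transgenic embryos differ by the label TBC1D3-transgenic. TBC1D3 is a hominoid gene absent from wild-type mice. Peak lists hold no expression values, so the tissue and genotype labels were not checked against marker genes. The promoter of the transgene, the number of embryos pooled and the line's founder are not given in the sources used here. With 1 library per genotype no p-value was computed, and every interval below is an exact (Clopper-Pearson) 95% binomial interval that covers counting error only.

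H3K9me2, dimethylation of lysine 9 on histone H3, is a mark of silent chromatin that the methyltransferases G9a and GLP write in euchromatin. It is known to form broad domains rather than narrow spots, and in the brain it covers long stretches that hold few active genes. A cluster of narrow calls is a group of places, close together, where the caller found more ChIP fragments than the input gave. The depth was 20697113 ChIP and 20968853 input tags in the transgenic library and 26735120 and 25431051 in the wild type, per the file headers.

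The clustered peaks that touched the sequence before an annotated gene start are shown first, since they are the places where a cluster can be read on the sequence. Among the clustered peaks 4 overlapped a window from 250 bases before to 50 after a RefSeq start. Both peaks of the Tie1 cluster were among them, with 1 peak each at Prl3c1 and the noncoding gene 1700084F23Rik. Tie1 encodes a receptor tyrosine kinase of endothelial cells, and Prl3c1 a hormone of the prolactin family. The 250 bases before the start are printed 5′ to 3′ for Tie1 (chr4:118489850-118490099, minus strand) and for an internal start of Prl3c1 (chr13:27198653-27198902, plus strand), from RefSeq on GRCm38.p6. Capitals mark the bases under a clustered peak.
Tie1: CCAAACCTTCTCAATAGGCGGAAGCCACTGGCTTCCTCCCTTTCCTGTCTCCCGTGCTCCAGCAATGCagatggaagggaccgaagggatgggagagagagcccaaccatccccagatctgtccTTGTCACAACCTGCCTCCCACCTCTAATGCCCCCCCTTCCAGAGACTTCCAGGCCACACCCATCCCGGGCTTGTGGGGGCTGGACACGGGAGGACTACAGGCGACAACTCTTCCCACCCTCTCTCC
Prl3c1: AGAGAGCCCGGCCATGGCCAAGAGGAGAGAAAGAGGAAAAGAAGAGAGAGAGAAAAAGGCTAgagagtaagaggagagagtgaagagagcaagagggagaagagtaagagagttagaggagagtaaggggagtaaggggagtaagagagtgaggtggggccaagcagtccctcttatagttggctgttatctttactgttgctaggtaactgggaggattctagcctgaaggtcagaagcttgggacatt

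In Tie1 the peaks lay 256 bp apart, summit to summit. The peak at 118490032 to 118490145 had 7 fragments over its summit and the peak at 118489781 to 118489975 had 5. Together they covered 194 of the 250 bases, and the weaker peak ran past the start into the gene. The other peak of the Prl3c1 cluster lay 1602 bp away, also inside the gene, and the cluster's peaks had 6 and 5 fragments. The Tie1 stretch was 60.4% G and C with 6 CG dinucleotides, where the median of 31396 windows was 52.4% and 6. The Prl3c1 stretch was 48.8% G and C with 1 CG dinucleotide. At 1700084F23Rik the overlap was 5 bases. The promoter table left out chromosome 18, so 591 clustered and 5252 unclustered peaks were compared. The share of clustered peaks on a promoter window was 0.677% (0.185 to 1.72) and that of unclustered peaks 0.305% (0.174 to 0.494), so the intervals overlapped. Of the 4 clustered peaks, the 2 of Tie1 shared a window, so the clustered interval is too narrow. Within 5 kb of a start lay 6.09% of clustered peaks (4.30 to 8.33) and 6.59% of unclustered ones (5.93 to 7.29).

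Most clusters were pairs. Of the 296 clusters, 272 held 2 peaks, 23 held 3 and 1 held 4. The median span from first to last summit was 3612.5 bp, with a range from 69 to 19115 bp. The 321 gaps inside clusters had a median of 3453 bp, against 215891 bp for all 6073 gaps between neighbouring transgenic peaks of a chromosome. Short gaps were the most frequent. Gaps of up to 1 kb numbered 70 and gaps of 1 to 2 kb numbered 50, while those from 2 to 10 kb came to 25.1 per kb and those from 10 to 20 kb to 23.5 per kb. The wild-type list, with 742 peaks on the same chromosomes, held 4 gaps of up to 10 kb and 5 of 10 to 20 kb among its 723. The lists differ in length, so these wild-type counts are not a contrast of the genotypes.

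**Figure D1:**
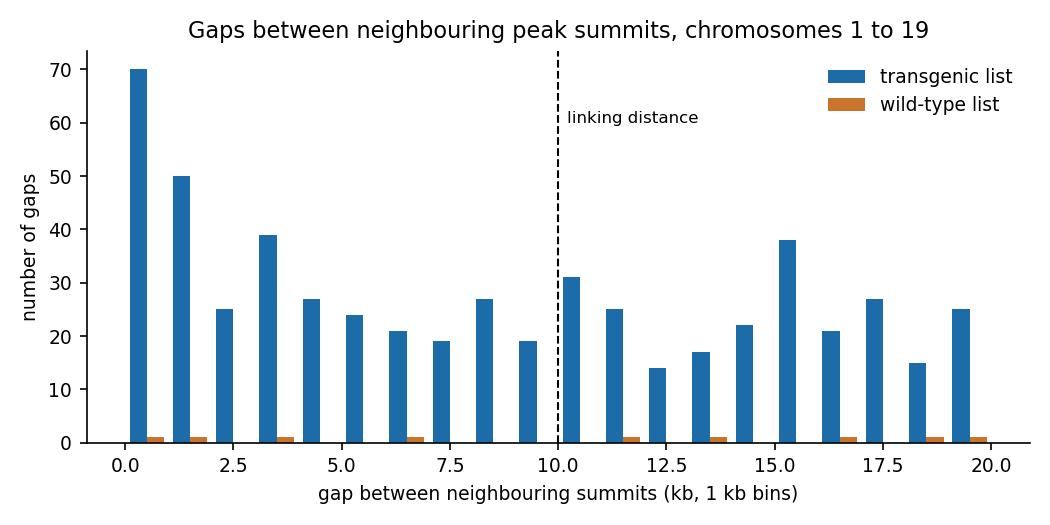
Number of gaps between neighbouring summits (y axis) by gap length in 1 kb bins (x axis), for the transgenic and the wild-type list; the dashed line marks the linking distance of 10 kb. The first bins hold 70 and 50 transgenic gaps, and the bins from 2 to 20 kb hold between 14 and 39.

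Nearly all short gaps joined separate calls. Of the 321 gaps, 1 lay within a called region, in Tnfrsf23, a receptor of the tumour necrosis factor family, where the caller placed summits 69 bp apart. It was the tightest pair. The next gaps were 184 bp (267.3 kb from Cdk5rap2) and 189 bp (nearest to Cntn5). Then came 199 bp (inside Shank2) and 222 bp (92.9 kb from Epha6). Shank2 is a postsynaptic scaffold, Cntn5 a contactin of neuronal adhesion and Epha6 an ephrin receptor. The pair nearest to Cntn5 lay 352.4 kb from it and had 7 fragments in each peak, and the pair in Shank2 had 5 in each. The gap nearest to the limit from inside was 9980 bp, 324.3 kb from Khdrbs3 on chromosome 15. The next was 9920 bp, 346.3 kb from 1700129C05Rik on chromosome 14. Just outside the limit was 10037 bp, with Tent5a on chromosome 9 the nearest coding gene. It was followed by 10066 bp, inside the potassium channel gene Kcnb2 on chromosome 1. The peaks on both sides of the limit had 5 to 7 fragments.

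The chromosomes differed in the share of their peaks that were clustered. It ran from 6.48% (21 of 324, 4.06 to 9.74) on chromosome 10 to 15.0% (34 of 226, 10.7 to 20.4) on chromosome 17. These are the ends of 19 values. Chromosome 1, with the most peaks, had 40 of 517 in clusters.

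The largest cluster lay inside Ano2, which encodes a calcium-activated chloride channel (chromosome 6, 125690419 to 126040133). Its 4 summits at 125915999, 125918531, 125921706 and 125925066 had 5, 8, 7 and 6 fragments. They were spaced from 2532 to 3360 bp, and the deposited folds ran from 2.94 to 4.36. A second cluster of the gene, a pair with 8 fragments in each peak, lay at 125850545 and 125853667. Of the 9 transgenic peaks inside Ano2, 6 were therefore clustered. The gene held 0 wild-type peaks, as did most coding genes. A wild-type peak lay in 0.91% of all coding genes and in 10 of the 73 with a clustered peak.

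Clusters of 3 peaks ranged in span from 1129 bp to 19115 bp. The tightest lay in Muc4, a membrane mucin (chromosome 16, 32756014 to 32757209), with 7, 7 and 6 fragments over 1129 bp. The next, 29.3 kb from the prolactin-family gene Prl8a6 (chromosome 13, 27467949 to 27469547), had 5, 10 and 7 fragments over 1482 bp. Its middle peak had a fold of 5.25 and the others folds of 3.09 and 4.03. A cluster 59.7 kb from Nmu, which encodes the neuropeptide neuromedin U, had 7, 5 and 6 fragments over 1919 bp. The 3 peaks inside the noncoding gene 1700019L22Rik spanned 3557 bp and lay 923.5 kb from Tenm3, the nearest coding gene.

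The others of the 10 tightest lay 3.35 kb from Neto1, an auxiliary protein of kainate receptors, in the noncoding A930027H12Rik, and in Myo5b, a myosin of vesicle transport. They were followed by clusters near Avpr1a (a vasopressin receptor, 154.3 kb away) and in the noncoding Gm20619 and Gm34282. Their peaks had 5 to 8 fragments. Of the 24 clusters with 3 or 4 peaks, 7 lay wholly in coding genes, 4 in other genes, 12 between genes and 1 across classes. The 7 were in Ano2, Muc4, Myo5b, Adarb2, Cacna2d3, Fer1l6 and Opcml. No peak of these 24 clusters had more than 10 fragments, while the highest of the 5475 unclustered peaks had 22. A maximum depends on the number of peaks. Counted as shares, 2.27% of all 617 clustered and 2.16% of unclustered peaks had 10 or more fragments.

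**Figure D2:**
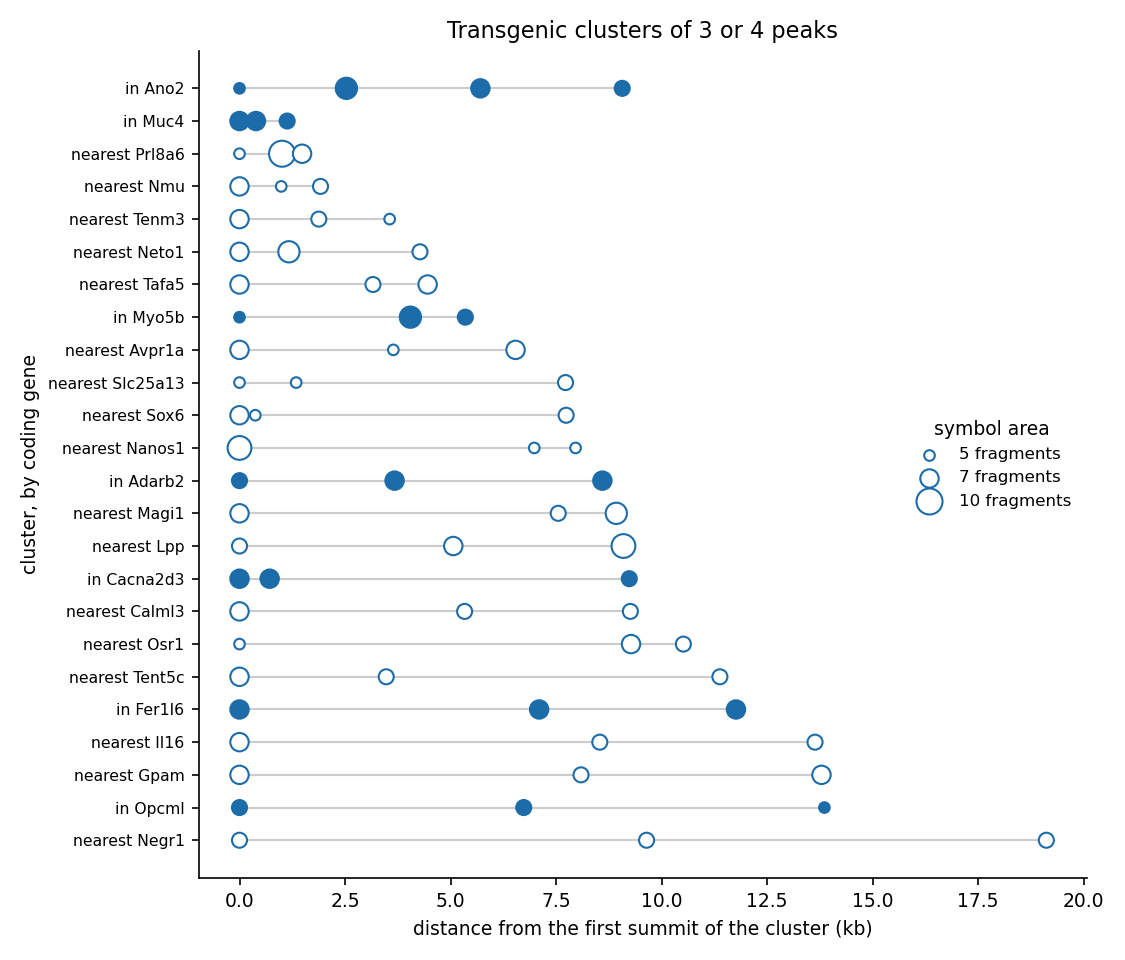
Positions of the peaks of the 24 clusters with 3 or 4 peaks, in kb from the first summit (x axis), 1 row per cluster named by the coding gene that holds it (filled symbols) or lies nearest (open symbols); symbol area follows the fragments over the summit. Spans run from 1129 bp in Muc4 to 19115 bp near Negr1, and the Ano2 cluster has its 4 peaks at similar spacing.

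Clusters with many fragments were few and mostly outside coding genes. The pair with the most fragments, 11 and 10, lay in the noncoding gene C230014O12Rik (chromosome 2, 34036999 to 34038794). Its local background, the input level the caller compared with, was 1.53 and 1.46 fragments, above the median of 1.01 over clustered peaks. The part of the input in these calls was not tested. Next came pairs of 10 and 9 fragments at the noncoding 1700020G17Rik and of 11 and 8 fragments 189.7 kb from Bcl11b, a transcription factor of deep-layer cortical neurons. A pair of 10 and 8 lay 6.10 kb from Toporsl. The pair in Glra1, a glycine receptor subunit, had 9 fragments in each peak and folds of 4.65 and 4.93. Fragments summed to a median of 13 per cluster (10 to 26). In 69 clusters all peaks had equal fragments, in 16 all had 8 or more and in 14 all had 5.

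Clustered and unclustered peaks had the same median height. The clustered median was 6 fragments (quartiles 6 and 7, range 5 to 11), and that of the 5475 unclustered peaks was 6 (quartiles 6 and 7, range 5 to 22). The median deposited fold was 3.63 and 3.60. A fold of 5 or more was listed for 162 of the 6092 peaks (2.66%), among them 15 clustered ones (2.43%, 1.37 to 3.98). These 15 stood in 15 different clusters, so 0 clusters had such a fold in all of their peaks. Of all peaks 22% had 8 or more fragments, which held for 19.9% of clustered peaks (16.9 to 23.3) and 22.3% of unclustered ones (21.2 to 23.4). The local background was 1.01 fragments at the median in clusters and 0.997 outside, and it stood at the genome-wide level of 0.841 for 9.56% and 9.85% of peaks. All these values come from the list that chose the members and are given without a test.

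The share of peaks with many fragments was also counted by gap. Among the 138 peaks whose nearest other summit lay within 1 kb, 16 had 8 or more fragments (11.6%, 6.77 to 18.1). The share was 23.4% (18.6 to 28.9) of 273 peaks with a nearest gap of 1 to 5 kb and 20.9% (15.5 to 27.1) of 206 peaks with one of 5 to 10 kb. The interval within 1 kb lay below that of 1 to 5 kb and that of unclustered peaks (21.2 to 23.4). It overlapped that of 5 to 10 kb. The 138 peaks stand at 70 gaps and share places, so their interval is too narrow. These shares followed no order with the gap, and they are a description of the list that chose the members. Median folds in the same order were 3.60, 3.66 and 3.56. Widths had a median of 122.5 bp for the closest peaks and 114 bp for unclustered peaks. The cut at 1 kb was chosen after the gaps had been seen.

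**Figure D3:**
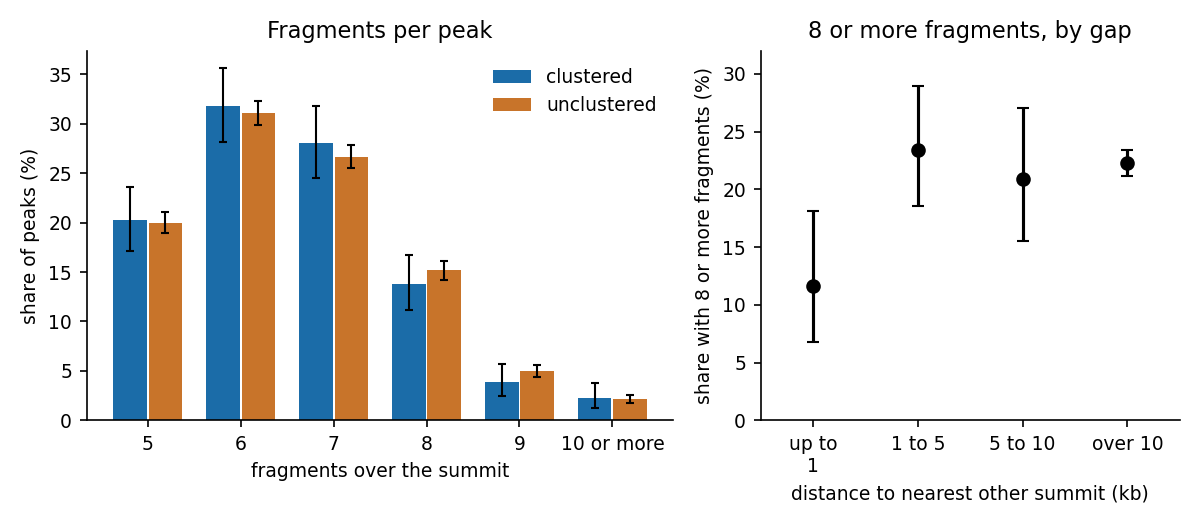
Left, share of clustered and unclustered transgenic peaks (y axis, %) by fragments over the summit (x axis). Right, share of peaks with 8 or more fragments by distance to the nearest other transgenic summit, with over 10 kb standing for the unclustered peaks. Bars or points are shares and error bars exact 95% binomial intervals. The distributions overlap on the left, and the peaks within 1 kb of another have 11.6% on the right.

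Neighbours inside a cluster resembled each other in strength about as often as neighbours farther apart. They had equal fragments in 24.9% of 321 gaps (20.3 to 30.0), against 27.7% (22.0 to 33.9) of the 235 gaps of 10 to 20 kb. The median difference was 1 fragment in both. Both neighbours had 7 or more fragments in 24.0% and 26.4%.

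Gene position was not part of the choice of members. Over all peaks of these chromosomes 28.6% of summits lay in a coding gene body. The share was 25.6% (22.2 to 29.2) for clustered peaks, 158 of 617, and 29.0% (27.8 to 30.2) for unclustered peaks, 1585 of 5475, with overlapping intervals. Between genes lay 61.6% of clustered summits (57.6 to 65.4) and 56.4% of unclustered ones (55.1 to 57.7). Peaks of a cluster share a place, so the row-wise intervals for clustered peaks are too narrow. Counted once per cluster, 59.8% of clusters (54.0 to 65.4) lay wholly between genes. That count asks every peak of a cluster to be intergenic, so it is stricter than the unclustered share. The cluster and unclustered shares are therefore not compared. Noncoding genes and pseudogenes held 9.72% and 10.7%, and flanks within 2 kb of a gene 3.08% and 3.93%. Clusters crossed a border between classes in 20 of 296 cases.

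**Figure D4:**
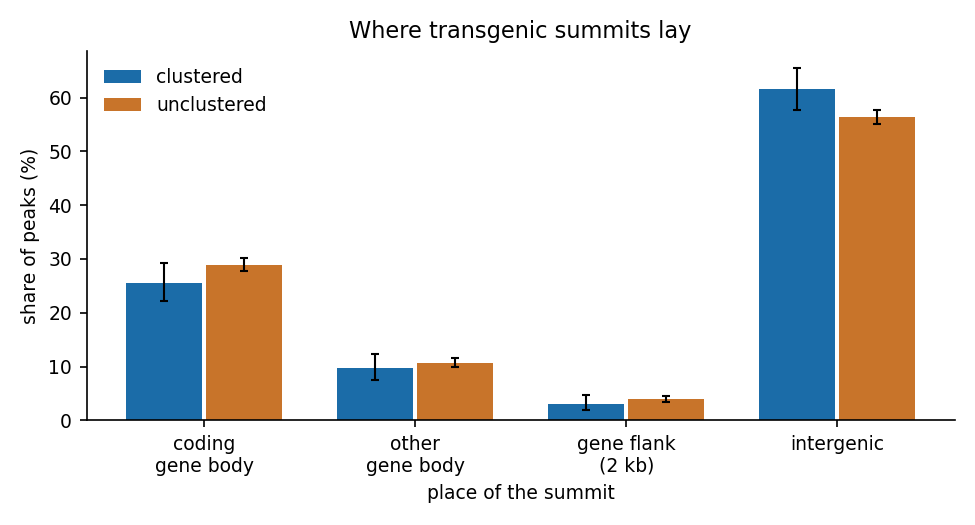
Share of clustered and unclustered transgenic summits (y axis, %) by place: coding gene body, other gene body, flank within 2 kb, or intergenic. Error bars are exact 95% binomial intervals over peaks. Intergenic summits make up 61.6% of clustered and 56.4% of unclustered peaks, and coding gene bodies 25.6% and 29.0%.

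Intergenic clustered summits lay at a median of 96.4 kb from the nearest coding gene (quartiles 37.2 and 227.5 kb). The median of intergenic unclustered summits was 114.6 kb (quartiles 34.7 and 301.7 kb). Counted by cluster, the nearest coding gene lay farther than 100 kb from 112 clusters (37.8%), and farther than 500 kb from 18. Another 106 clusters had a coding gene within 100 kb with no summit in its body. The number of coding genes within 500 kb had a median of 4 for clustered and for unclustered peaks. A lack of coding genes over that distance was seen for 6.00% of clustered peaks (4.26 to 8.17) and 8.53% of unclustered ones (7.80 to 9.30). Other transgenic peaks around the summits were also counted. Between 10 and 500 kb from the summit lay 3.61 on average for clustered and 3.14 for unclustered peaks, which is again the list the members came from.

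Coding genes that held a clustered peak numbered 73, or 0.355% of 20556, while 5.4% held any transgenic peak. Their lengths ran from 2.32 to 1433 kb, with a median of 226.3 kb (quartiles 55.85 and 448 kb). The median was 164.4 kb (quartiles 68.47 and 380.4 kb) for the 1036 genes with unclustered peaks only and 17.6 kb for all coding genes. Most of the 73 held 2 or more peaks, which was not required of the other genes, so the sets are unlike. In 57 of the 73 the gene held 2 peaks of 1 cluster, in 5 it held 3 peaks of 1 cluster, in 6 it held 1 peak, and 5 held more than 1 cluster. All transgenic peaks of the gene were clustered in 40. A wild-type peak lay in 10 of them. Over all coding genes, which are shorter, 0.91% held a wild-type peak.

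Besides Ano2, genes with more than 1 cluster included Opcml, Arhgap24 and Trpm3. Opcml, an adhesion protein of the IgLON family, held a cluster of 3 (6, 6 and 5 fragments over 13857 bp) and a pair (7 and 8) among 14 peaks. Those clusters began at 28046290 and 28676925 on chromosome 9. The gene is 1134.7 kb long and also held 2 wild-type peaks.

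Arhgap24, which inactivates Rac-type GTPases, held 2 pairs with gaps of 766 and 1662 bp and 5 peaks in all. The first pair had 8 and 7 fragments and the second 7 and 6. Trpm3, a cation channel, held 2 pairs, with gaps of 5503 and 3069 bp, and both also lay in the noncoding gene Gm33649 inside it. The last of its clustered peaks had 8 fragments but a fold of 3.03, since its local background was 1.97. Arhgap24 and Trpm3 held 0 wild-type peaks, beside 0.91% of all coding genes that held any.

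Of 17 lists of genes for receptors, channels, adhesion, guidance and cortical cell types, 5 had a member with a clustered peak. IgLON, contactin and neurexin adhesion genes had 4 of 23, namely Opcml, Nlgn1, Cntn4 and Cntn1. Nlgn1 is a postsynaptic partner of neurexins, and its pair had 5 fragments in each peak over 8849 bp. Cntn4 had 7 and 5 over 2833 bp, and Cntn1 6 and 5 over 1192 bp. This list's median gene length was 718.4 kb, the longest of the lists, and 15 of its 23 genes held some transgenic peak. Among 17 ionotropic glutamate receptor genes Grin2a held a pair of 6 and 9 fragments over 2526 bp. Among 25 voltage-gated calcium channel genes Cacna2d3, an auxiliary subunit, held a cluster of 3 with 7, 7 and 6 fragments over 9234 bp. Shank2 was the member among 17 postsynaptic scaffolds, and Pcdh9 among 10 non-clustered protocadherins, with 6 and 5 fragments over 8684 bp. Wild-type peaks also lay in Grin2a (3), Cacna2d3 (3), Opcml (2) and Cntn4 (1), and in none of Nlgn1, Cntn1, Shank2 and Pcdh9. Over all coding genes, which are shorter, 0.91% held one.

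The other 12 lists had 0 members with a clustered peak, beside 0.355% of all coding genes. They were 22 radial glia and progenitor genes such as Pax6, Sox2 and Eomes, 15 cortical neuron genes, 22 genes of H3K9 methylation, 68 axon guidance genes, 33 synaptic organisers, 19 cadherins, 41 potassium and 18 sodium channel genes, 16 GABA-A and 8 metabotropic glutamate receptor genes, 391 Zfp zinc finger genes and 1100 olfactory receptor genes. At that share a count of 0 in lists of up to 68 genes is not a result about them. A count of 0 allows a share of up to about 13.6% in the progenitor list, 4.41% in the guidance list and 0.767% in the Zfp list. These limits are 3 divided by the number of genes, an approximation and not exact intervals. The olfactory receptor genes, with a median length of 0.95 kb, lie in groups, so their 0 of 1100 does not stand for as many places.

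Few clusters had a wild-type peak nearby. Of all transgenic peaks on these chromosomes 81 (1.33%) had a wild-type summit within 10 kb. The share was 1.94% (12 of 617, 1.01 to 3.37) for clustered and 1.26% (69 of 5475, 0.982 to 1.59) for unclustered peaks, and the intervals overlapped. The 12 peaks belonged to 6 clusters, 2.03% of clusters (0.747 to 4.36), and each of these clusters had 1 wild-type peak. Within 1 kb the shares were 0.486% and 0.347%. Within 100 kb they were 11.7% (9.24 to 14.5) and 8.58% (7.86 to 9.36), still with overlapping intervals. With both lists limited to a −log10 p of at least 5, the 10 kb shares turned to 0% of 76 clustered peaks (0 to 4.74) and 0.368% of 1902 unclustered peaks (0.148 to 0.757). Among the 138 peaks with another transgenic summit within 1 kb, 0 had a wild-type summit within 10 kb (0%, 0 to 2.64). That interval includes the 1.33% of all peaks, so the 0 is not a result about these peaks. They share places, so the upper limit is too low.

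The nearest wild-type summit lay 230 bp from a pair of 6 and 7 fragments, 635.4 kb from Sorcs1, a neuronal sorting receptor (chromosome 19, 49503644 to 49507999). That wild-type peak had 6 fragments, counted before the authors' scaling. A cluster of 3 with 6, 7 and 9 fragments, 128.4 kb from Lpp (chromosome 16, 25120880 to 25130107), had a wild-type peak of 7 fragments 376 bp from its first summit. In Itgam, the integrin chain CD11b of microglia and other myeloid cells, the transgenic peaks had 7 and 8 fragments over 8855 bp (chromosome 7, 128076342 to 128085329). The wild-type peak there had 6 fragments and lay 517 bp from the first of them. Another wild-type peak lay 1527 bp from a pair that was 109.5 kb from Gfra2 (a receptor for neurturin). The others lay 3568 bp from a pair 71.6 kb from Fam170a and 7662 bp from a pair 5.89 kb from Ehf (an epithelial transcription factor). All 6 wild-type peaks carried a listed q of 1. Most transgenic peaks also had a listed q above 0.1. A listed q of 0.1 or less was found for 133 of 617 clustered peaks (21.6%) and 1282 of 5475 unclustered peaks (23.4%). The highest listed −log10 q was 1.172 in both sets. These values describe peaks within each list and do not compare the genotypes.

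**Figure D5:**
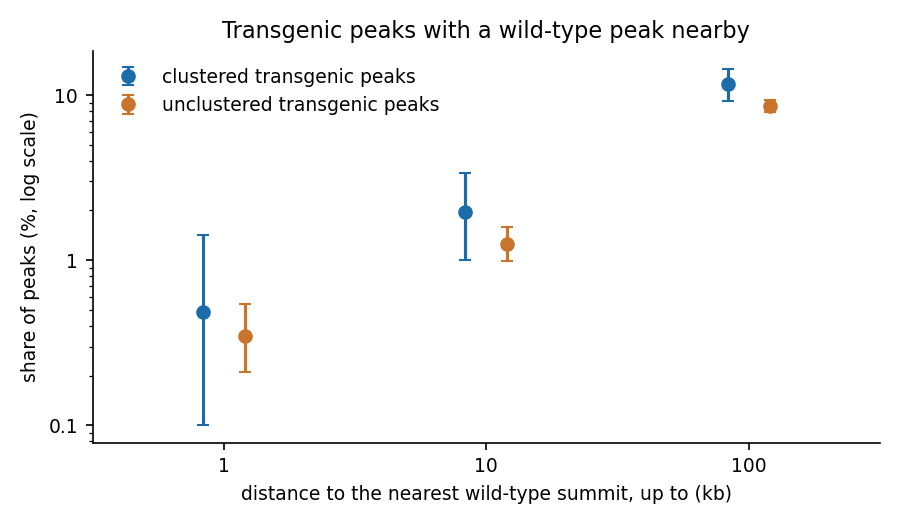
Share of clustered and unclustered transgenic peaks (y axis, %, log scale) with a wild-type summit within 1, 10 or 100 kb (x axis); error bars are exact 95% binomial intervals over peaks. At each distance the clustered share is the higher value (1.94% against 1.26% at 10 kb), and the intervals overlap.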

How the data were processed

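Peaks of each library stand in their own list. MACS2 2.1.0.20150420 was run by the authors on ChIP against input of the same genotype, per the file headers, at a p cutoff of 0.001, with no shift model, summits searched, and extensions of 57 bp (wild type) and 111 bp (transgenic). The submitters' processing notes also name BWA and mm10. The deposited pileup signal counts extended fragments over the summit after scaling, per the file headers (ChIP multiplied by 0.951 in the wild type and by 1 in the transgenic). The deposited fold is the ratio of pileup plus 1 to local background plus 1, from which the background was computed. The −log10 of the p-value and q-value were deposited as the caller printed them, and q is listed despite a header line that it is not computed. These are the authors' values per peak and only describe or filter peaks within a list.

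Summits on chromosomes 1 to 19 were sorted and chained at 10 kb with Python 3.11.15 and pandas 2.3.3, a step tested on simulated positions. Summits were placed on 46710 RefSeq genes (GRCm38.p6, the assembly of mm10) without strand or exons, with 340 genes that start below 3 Mb left out. No genome sequence was used here beyond the RefSeq promoter windows.

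The members and gene lists were chosen with earlier results of these data known. Clusters named were those of 4 or more peaks, the 10 tightest of 3, the 5 pairs with most fragments, the 5 tightest pairs, those within 10 kb of a wild-type peak (up to 10), genes with more than 1 cluster (1 is not reported here), up to 4 genes per list and the gaps beside the limit. Tie1, Prl3c1, Negr1 and other clusters of 3 were named after their values were seen. Alternatives were other linking distances and positions, collapsed or filtered peaks, chromosome X, wild-type windows and gene flanks.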

Additional observations from a re-analysis of the deposited data

How the results depend on the processing

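With 1 library per genotype none could be left out, and the lists are already limited to a p of 0.001. No paired analysis was possible because each genotype has 1 library. Of 54 values under 12 alternatives, 37 stayed within 1.5 times a count or inside the interval of a share, and those below did not. A linking distance of 5 kb gave 411 clustered peaks, and 20 kb gave 1047 in 491 clusters. A deposited fold of at least 5 left 0 clustered peaks and 0 clusters, so no clustered shares, with 0% of the remaining peaks near a wild-type summit and 24.1% in coding genes. A −log10 p of at least 5 left 76 clustered peaks in 38 clusters. There 0% of clustered (0 to 4.74) and 0.368% of unclustered peaks (0.148 to 0.757) had a wild-type summit within 10 kb. The clustered share was no longer the higher value, but its interval holds the unclustered one, so their order is not settled. In coding genes lay 19.7% of clustered peaks. These filters shortened both lists. Wild-type windows of 1 kb and 100 kb gave 0.486% and 11.7% of clustered and 0.347% and 8.58% of unclustered peaks. With 2 kb flanks 30.2% of unclustered peaks lay in coding genes. Summits replaced by midpoints gave 617 peaks and 296 clusters again.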

Other observations

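The wild-type list held 4 pairs within 10 kb on chromosomes 1 to 19, and none had a transgenic peak within 10 kb. The tightest, 651 bp apart, lay 19 kb from Galnt15 on chromosome 14, and a second on that chromosome, 3481 bp apart, lay inside Cacna2d3. The transgenic cluster of 3 in Cacna2d3 was elsewhere in the gene, 282.3 kb from the nearest wild-type summit. Another wild-type pair, 1383 bp apart, lay 47.8 kb from Dll1, a Notch ligand. On chromosome X the transgenic list had 161 peaks, of which 9 (5.59%, 2.59 to 10.4) formed 4 clusters, the largest of 3 peaks with 8, 6 and 7 fragments. None of these 9 summits lay in a gene.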
